A study of Mus musculus with 9 samples.

Results

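The 31 genes described here belong to cholesterol metabolism in the liver: 17 enzymes of cholesterol and isoprenoid synthesis, 4 genes of SREBP2 control (Srebf2, Scap, Insig1 and Insig2), 5 genes of the liver X receptors and their targets (Nr1h3, Nr1h2, Mylip, Abca1 and Abcg1) and 5 genes of sterol transfer, storage or esterification (Stard4, Soat2, Npc1, Npc2 and Lcat). They were picked by gene symbol from the RNA-seq count tables of 9 mouse livers. All 31 symbols were found among the 23420 genes of the tables, and all 31 were among the 13020 genes left after a filter on low counts. Abcg5 and Abcg8 are not in the list and are given separately with other targets of the liver X receptors. The mice were wild-type C57/BL6 males on a purified, soy-free AIN-93G diet that differed in iron: 2.5 mg per kg (low iron, 3 mice), 37.5 mg per kg (sufficient iron, 3 mice) or 1000 mg per kg (high iron, 3 mice). Feeding began at 5 weeks of age and lasted 50 days, with livers taken at 12 weeks. Each library is called by its diet and its title number: low iron 1, 5 and 9, sufficient iron 2, 6 and 10, and high iron 4, 8 and 12. Hjv knockout mice, also mentioned in the protocol, are not analysed here.

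Hepatocytes make cholesterol from acetyl-CoA by way of mevalonate, the isoprenoid diphosphates, squalene and lanosterol. The transcription factor SREBP2 switches on most of these enzymes together: it is held in the endoplasmic reticulum by INSIG proteins when sterols are plentiful and carried to the Golgi for cleavage by its escort SCAP when they are scarce. The liver X receptors (LXR) work in the other direction, being activated by oxysterols and raising genes of cholesterol efflux and biliary excretion. Several steps of sterol synthesis use iron-dependent oxygenases, among them the heme enzyme encoded by Cyp51.

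Levels are given as CPM, a gene's counts per mega-read of library size, with library sizes scaled by the trimmed mean of M-values (TMM), and differences as log2 fold changes with their standard errors from edgeR's quasi-likelihood fit to all 9 libraries. A gene was called when its p-value, adjusted by Benjamini and Hochberg over the 13020 tested genes, was under 0.05. With all 9 libraries, 0 of the 31 genes were called in any of the 3 pairwise comparisons or in the joint test of the 3 diets, where 0% to 0.507% of all tested genes were called. The 17 enzymes had positive log2 fold changes in high iron against sufficient iron, 17 of 17, where 48.1% of all tested genes did. Their median was 0.30, with a range from 0.01 to 0.64, while the median of all tested genes was -0.01. The enzymes varied together between libraries, so 17 of 17 is not a count of independent results. Idi1 and Hsd17b7 were lowest in the low-iron livers, intermediate in the sufficient-iron livers and highest in the high-iron livers, with no overlap between any pair of diets. Of all tested genes, 7.83% were lower in low than in sufficient iron without overlap. For high iron, 8.99% were higher than in sufficient iron and 7.59% higher than in low iron. The share separated in all 3 pairs at once was not computed. One low-iron library, number 1, had enzyme levels far above those of the other low-iron livers. Without it, 6 enzymes were called higher in high iron than in low iron (0.801% of all tested genes were called). Their log2 fold changes were 0.76 to 0.94. Because low iron 1 is set apart here by these same enzyme levels, a larger difference without it was built in. These calls are therefore not counted as support for a diet difference. Leaving out low iron 5 or 9 instead gave 0 calls, and the enzyme median fell from 0.33 to 0.20 or 0.19. Without low iron 1 and high iron 12 together, 0 were called (0.235% of all tested genes). The log2 fold changes of the 6 enzymes were then 0.63 to 0.76. That fit also lacks low iron 1, so these values are not counted as support either.

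The sequence just upstream of the gene starts was searched for short motifs. RefSeq windows of 250 bases before a gene start (build GRCm38.p6) were found for 24 of the 31 genes, as 31 windows, because some genes have more than 1 start. Fdps, Fdft1, Sqle, Stard4, Abcg1, Soat2 and Npc1 had no entry in the table. Each window was searched on both strands for TCACNCCAC, one form of the sterol regulatory element bound by SREBP2, and for CCAAT, the box bound by NF-Y, a factor that acts beside SREBP2 at sterol-regulated promoters. A sterol element and a CCAAT box can share at most 1 end base, and in the windows shown they do not overlap. Shown here are Hmgcs1, which holds the sterol element, 4 of the enzymes that were called without low iron 1, and Acat2, also called in that fit, which has no match to either motif. Each is written 5′ to 3′ in the direction of the gene, with matches in capitals (TCACCCCAC for the sterol element, CCAAT or its reverse complement ATTGG for the box) and all other bases in lower case.
Hmgcs1, chr13:119690101-119690350, plus strand, 1 sterol element and 3 CCAAT boxes: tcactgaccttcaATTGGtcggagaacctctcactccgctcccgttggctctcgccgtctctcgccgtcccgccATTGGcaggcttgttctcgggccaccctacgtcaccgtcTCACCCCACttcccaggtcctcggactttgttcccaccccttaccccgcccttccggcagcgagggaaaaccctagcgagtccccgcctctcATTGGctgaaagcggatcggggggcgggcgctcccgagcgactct
Idi1, chr13:8885356-8885605, plus strand, 2 CCAAT boxes: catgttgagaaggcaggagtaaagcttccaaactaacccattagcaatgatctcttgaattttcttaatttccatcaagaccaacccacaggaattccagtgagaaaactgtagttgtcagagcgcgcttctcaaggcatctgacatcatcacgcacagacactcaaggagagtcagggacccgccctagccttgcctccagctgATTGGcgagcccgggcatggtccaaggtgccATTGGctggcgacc
Hsd17b7, chr1:169969206-169969455, minus strand, 3 CCAAT boxes: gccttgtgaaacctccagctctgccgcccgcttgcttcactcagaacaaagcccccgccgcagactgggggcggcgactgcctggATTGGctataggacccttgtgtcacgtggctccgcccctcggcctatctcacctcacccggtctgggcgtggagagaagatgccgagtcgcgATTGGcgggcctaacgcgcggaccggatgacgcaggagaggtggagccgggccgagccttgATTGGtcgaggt
Lss, chr10:76531355-76531604, plus strand, 1 CCAAT box: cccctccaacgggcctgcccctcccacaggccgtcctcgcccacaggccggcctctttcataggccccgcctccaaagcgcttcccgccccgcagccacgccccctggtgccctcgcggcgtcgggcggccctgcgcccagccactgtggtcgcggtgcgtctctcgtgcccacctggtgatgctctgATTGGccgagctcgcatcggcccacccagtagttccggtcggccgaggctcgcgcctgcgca
Cyp51, chr5:4104698-4104947, minus strand, 1 CCAAT box: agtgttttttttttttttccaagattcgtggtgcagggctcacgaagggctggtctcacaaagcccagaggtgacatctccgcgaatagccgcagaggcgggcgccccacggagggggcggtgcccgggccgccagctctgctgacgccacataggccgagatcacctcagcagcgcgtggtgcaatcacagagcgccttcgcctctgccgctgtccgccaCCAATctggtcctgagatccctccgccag
Acat2, chr17:12960726-12960975, minus strand, 0 matches: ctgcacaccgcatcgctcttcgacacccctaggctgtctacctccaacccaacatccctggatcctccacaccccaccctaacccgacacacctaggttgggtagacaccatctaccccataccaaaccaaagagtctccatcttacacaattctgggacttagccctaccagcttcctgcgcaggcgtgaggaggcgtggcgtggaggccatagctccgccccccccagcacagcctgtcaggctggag

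The sterol element of the Hmgcs1 window starts 137 bases before the gene start, on the strand of the gene. It was the single match to that motif in the 31 windows (3.23%), and 346 of all 32851 RefSeq windows of the same length hold it (1.05%). CCAAT was found in 19 of the 31 windows (61.3%), against 33.8% of all windows, 11120 in number. Of the 14 enzyme genes with a window, 13 had at least 1 CCAAT box, and of the 10 other genes with a window 6 had one. These counts per gene take any window of the gene. Counted per window, as for all windows, 13 of the 17 enzyme windows held a CCAAT box. These are matches of letters and were not tested for binding.

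The libraries held 22 M to 33.8 M gene reads each (M, mega), 245 M together, and the counts of the 31 genes per library ran from 57 to 31887. Rn45s, the precursor of ribosomal RNA, made up 43.7% of the reads in low iron 1 and 40.5% in high iron 12, against 12.5% to 23.8% in the other 7 libraries. Lars2 made up 11.6% and 10.4% in these libraries, against 3.47% to 6.8% in the other 7. Their TMM scaling factors were 0.583 and 0.779, against 0.952 to 1.29 in the other 7. A smaller factor gives a higher CPM for the same share of reads. The same pair of libraries had the highest enzyme levels: low iron 1 held the highest value of the 9 libraries for 8 of the 17 enzymes and high iron 12 for 7. Markers of hepatocytes were abundant in each library (7 of 7 tested, summed level 63200 to 72300 CPM in low iron, 49200 to 67700 in sufficient iron and 47700 to 58300 in high iron). Most of this sum was Alb. Apoa1 measured 7650, 2980 and 4390 CPM in low iron 1, 5 and 9, and Ttr 7880, 4230 and 5150. Alb, Tat, Cps1, Hnf4a and Cyp2e1 did not have their highest low-iron level in low iron 1. Kupffer cell markers, 8 of 8 tested with 0 called, summed to 91 to 222 CPM in low iron, 215 to 360 in sufficient iron and 187 to 241 in high iron, and the lowest sum was that of low iron 1. In RNA of whole liver, fewer cells of a type and less RNA per cell cannot be told apart. Endothelial markers summed to 110 to 188, 170 to 208 and 153 to 226 CPM in low, sufficient and high iron, and cholangiocyte markers to 22.9 to 32.7, 34.8 to 66 and 27.7 to 61.4. The cholangiocyte sums were almost wholly Spp1, at 21.7 to 63.6 CPM, while Krt7, Krt19 and Epcam ranged from 0.156 to 1.87 CPM. Adipocyte markers summed to 6.02 to 15 CPM in the 9 libraries, with Plin1 at 0 in each of them. Stellate cell markers, 4 of 4 tested with 0 called, summed to 145 to 212, 173 to 291 and 165 to 225 CPM, with the lowest sum in low iron 1. Of the 4 erythroid markers, Hba-a1 and Hbb-b1 were at 0 in each library, Slc4a1 did not pass the filter, and the summed level, 87.2 to 126 CPM in low iron, 62.4 to 81.7 in sufficient iron and 28.2 to 38.4 in high iron, was almost wholly Alas2, the erythroid enzyme of heme synthesis. The counts of 0 do not show that red-cell RNA was absent, because reads placed at several sites were left out of the counts. Alas2 measured 86.9, 126 and 93.7 CPM in low iron, 81.5, 62.3 and 69.1 in sufficient iron and 38.4, 35.8 and 28.1 in high iron, and was called lower in high iron against sufficient iron (log2 fold change -1.06, adjusted p = 0.0479) and against low iron (-1.58, adjusted p = 0.0113). The first call ended with 7 of the 9 libraries left out in turn, all but low iron 1 and 5 (adjusted p up to 0.228), and the second without high iron 4 (0.0565) or 8 (0.076). The part of Rn45s or of other cell types in the enzyme levels was not tested.

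**Figure D1:**
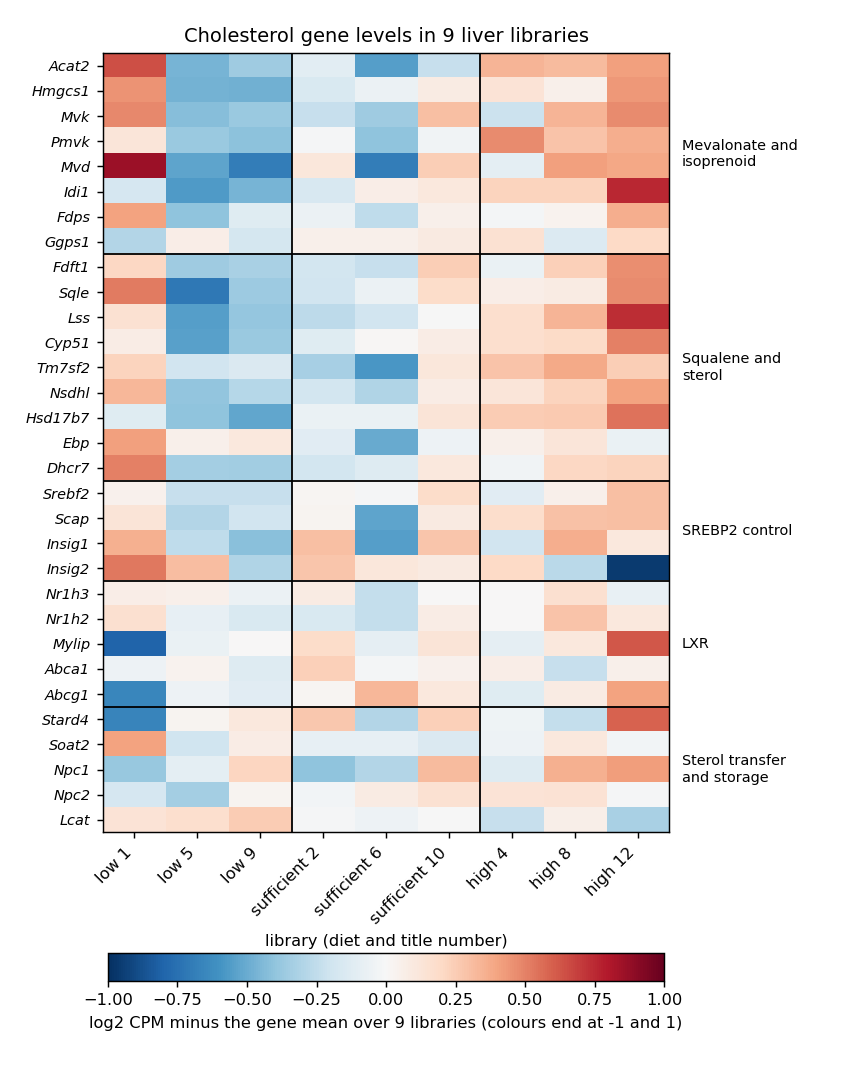
Levels of the 31 genes (rows, grouped by role) in the 9 libraries (columns, grouped by diet), as log2 CPM minus the mean of the gene over the 9 libraries. Most enzyme rows are high in low iron 1 and high iron 12 and low in low iron 5 and 9; of the LXR rows, Mylip and Abcg1 are lowest in low iron 1 and highest in high iron 12.

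Per kilobase of the principal transcript, the mean level over the 9 libraries was highest for Fdps (261 CPM per kb), Hmgcs1 (226) and Insig1 (190), and lowest for Abcg1 (1.23), Ggps1 (1.29) and Mylip (2.88). Among the regulators, Srebf2 stood at 8.29 CPM per kb, Scap at 33.8, Insig2 at 127, Nr1h3 at 38.8 and Nr1h2 at 12.9.

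The comparison of high iron with sufficient iron asks how dietary iron loading relates to liver gene expression. Of the 31 genes, 27 had a positive log2 fold change and 4 a negative one, with a median of 0.24, and 0 were called (0.215% of all tested genes were called, 28 genes; the lowest adjusted p of the 31 was 0.363). A positive log2 fold change was found for 48.1% of all tested genes. At an unadjusted p under 0.05, 6 of the 31 passed, 6 of them higher, where 9.28% of all tested genes passed. In 10 of the 31 the lowest high-iron library was above the highest sufficient-iron library, and in 0 the order was the reverse, where 8.99% of all tested genes were higher without overlap and 8.85% lower. These include 8 enzymes; Scap and Soat2 are the other two. Without high iron 12 the median was 0.13, and 2 genes passed at an unadjusted p under 0.05.

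In low iron against sufficient iron the 31 genes divided evenly, with 15 log2 fold changes above 0 and 16 below, a median of -0.06 and 0 called (0% of all tested genes were called; lowest adjusted p 0.446). At an unadjusted p under 0.05, 3 of the 31 passed, where 11.2% of all tested genes did. The median was -0.22 without low iron 1 and 0.05 without low iron 5. The diets did not overlap for 2 genes higher in low iron (8.81% of all tested genes) and for 3 genes lower (7.83%).

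In high iron against low iron, 27 of 31 log2 fold changes were positive, the median was 0.29 and 0 genes were called (0.507% of all tested genes, 66 in number; lowest adjusted p 0.0544, for Hsd17b7). A positive log2 fold change was found for 48.8% of all tested genes. At an unadjusted p under 0.05, 5 passed as higher and 1 as lower, where 9.65% of all tested genes passed. Groups did not overlap for 7 genes higher in high iron (7.59% of all tested genes) and for 1 lower (8.15%). The joint test of the 3 diets called 0 of 31 (0.215% of all tested genes), with 7 at an unadjusted p under 0.05 (10.7% of all tested genes). The median was 0.45 without low iron 1, 0.16 without low iron 5, 0.18 without low iron 9 and 0.19 without high iron 12. The 3 comparisons share libraries and are not independent of each other.

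The 8 genes of the mevalonate and isoprenoid steps had positive log2 fold changes in high iron against sufficient iron, 8 of 8, with a median of 0.30; the medians were -0.03 in low iron against sufficient iron and 0.30 in high iron against low iron. Idi1 encodes the isomerase that interconverts the isoprenoid building blocks. Its level was 292, 222 and 237 CPM in low iron 1, 5 and 9, 293, 343 and 352 in sufficient iron 2, 6 and 10, and 383, 382 and 552 in high iron 4, 8 and 12. The 3 diets formed separate ranges, with low iron 1 just under the lowest sufficient-iron library and high iron 12 above all others. The means were 250 ± 36.7, 329 ± 31.7 and 439 ± 97.8 CPM (SD, n = 3 per diet). The log2 fold change was 0.42 ± 0.17 in high iron against sufficient iron (adjusted p = 0.517), -0.39 ± 0.17 in low iron against sufficient iron (adjusted p = 0.446) and 0.81 ± 0.17 in high iron against low iron (adjusted p = 0.072).

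Pmvk encodes phosphomevalonate kinase, the enzyme after mevalonate kinase. Its level was 74, 52.6 and 51.3 CPM in the low-iron livers, 67.4, 51.4 and 66.3 in the sufficient-iron livers and 94.3, 82.7 and 87.4 in the high-iron livers. The high-iron livers lay above the other 6, whose ranges overlapped. The means were 59.3 ± 12.8, 61.7 ± 8.94 and 88.1 ± 5.84 CPM (SD, n = 3). In high iron the log2 fold change was 0.51 ± 0.16 against sufficient iron (adjusted p = 0.363, the lowest of the 31 genes in that comparison) and 0.57 ± 0.16 against low iron (adjusted p = 0.187).

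Acat2 encodes the cytosolic thiolase that joins acetyl-CoA units at the entry of the pathway. Its level was 162, 75.3 and 80.9 CPM in low iron 1, 5 and 9, 96.3, 70.7 and 88.4 in the sufficient-iron livers and 131, 129 and 138 in the high-iron livers. Low iron 1 was the highest of the 9 libraries, and the other low-iron livers lay within the range of the sufficient-iron livers. The means were 106 ± 48.4, 85.1 ± 13.1 and 133 ± 4.43 CPM (SD, n = 3), and the log2 fold change of high iron was 0.64 ± 0.25 against sufficient iron (adjusted p = 0.504) and 0.33 ± 0.25 against low iron (adjusted p = 0.746). Mouse Acat3 is nearly identical to Acat2 and reads placed at several sites were left out of the counts, so the level of Acat2 is uncertain.

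Like Acat2, the remaining enzymes of this group except Ggps1 had their highest level in low iron 1. Unlike Acat2, Hmgcs1 and Mvk were lower in low iron 5 and 9 than in any sufficient-iron liver. Hmgcs1, the synthase that makes HMG-CoA, measured 1040, 551 and 548 CPM in the low-iron livers, 688, 734 and 807 in the sufficient-iron livers and 838, 792 and 1030 in the high-iron livers. Low iron 5 and 9 were the lowest 2 libraries and low iron 1 the highest, which left a log2 fold change of 0.31 ± 0.23 in high iron against low iron (adjusted p = 0.735). Mvd, the decarboxylase of the pathway, measured 75.4 CPM in low iron 1 but 29 and 25.8 in low iron 5 and 9, with 25.8 to 49.5 in sufficient iron and 39.1 to 55.4 in high iron. Mevalonate kinase (Mvk) ranged from 13.5 to 25.3 CPM over the 9 libraries and farnesyl diphosphate synthase (Fdps) from 268 to 469, both with their highest value in low iron 1. Ggps1, which makes the geranylgeranyl diphosphate used for protein prenylation rather than for sterols, was the exception: its level was 4.45 to 6.25 CPM over the 9 libraries, lowest in low iron 1, and its log2 fold change in high iron against sufficient iron was 0.01 ± 0.15.

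**Figure D2:**
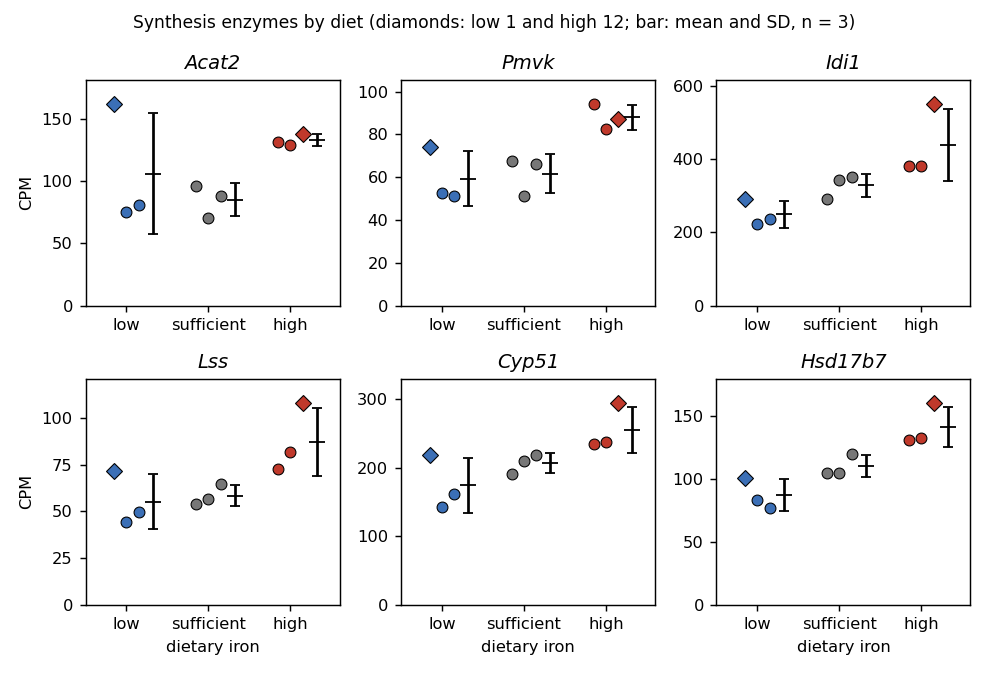
CPM of Acat2, Pmvk, Idi1, Lss, Cyp51 and Hsd17b7 (1 panel each, axis from 0) by diet, with 1 symbol per liver and the mean and SD of 3 livers per diet; diamonds mark low iron 1 and high iron 12. The low iron 1 diamond is the highest low-iron liver in the 6 panels, and the Idi1 and Hsd17b7 panels step up from low to sufficient to high iron.

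The 9 enzymes from squalene to cholesterol likewise had 9 of 9 positive log2 fold changes in high iron against sufficient iron, with a median of 0.30; the medians were -0.08 in low iron against sufficient iron and 0.33 in high iron against low iron. Hsd17b7 encodes the keto-reductase that takes part in removing the extra methyl groups of lanosterol. It measured 101, 83 and 76.5 CPM in the low-iron livers, 105, 105 and 120 in the sufficient-iron livers and 131, 132 and 160 in the high-iron livers. No 2 diets overlapped, and the means were 86.9 ± 12.8, 110 ± 8.76 and 141 ± 16.1 CPM (SD, n = 3). Its log2 fold change was 0.36 ± 0.14 in high iron against sufficient iron (adjusted p = 0.474), -0.34 ± 0.14 in low iron against sufficient iron (adjusted p = 0.446) and 0.70 ± 0.14 in high iron against low iron (adjusted p = 0.0544). The adjusted p of its joint test over the 3 diets, 0.12, was the lowest of the 31 genes.

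Lss, lanosterol synthase, closes squalene epoxide into the first sterol. It measured 71.9, 44.3 and 49.5 CPM in the low-iron livers, 54.1, 56.8 and 64.6 in the sufficient-iron livers and 72.6, 81.8 and 108 in the high-iron livers. The high-iron livers lay above the other 6, with low iron 1 within 1 CPM of the lowest of them. The means were 55.2 ± 14.7, 58.5 ± 5.43 and 87.3 ± 18.1 CPM (SD, n = 3), and the log2 fold change of high iron was 0.58 ± 0.19 against sufficient iron (adjusted p = 0.413) and 0.66 ± 0.20 against low iron (adjusted p = 0.209).

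Cyp51, the heme enzyme that removes a methyl group from lanosterol, measured 219, 143 and 161 CPM in the low-iron livers, 191, 210 and 219 in the sufficient-iron livers and 234, 237 and 294 in the high-iron livers. Low iron 1 stood with the upper end of the sufficient-iron livers, and the high-iron livers lay above both diets. The means were 174 ± 39.8, 207 ± 14.1 and 255 ± 33.9 CPM (SD, n = 3), and the log2 fold change of high iron was 0.30 ± 0.17 against sufficient iron (adjusted p = 0.6) and 0.55 ± 0.17 against low iron (adjusted p = 0.226).

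The high-iron livers were also above the sufficient-iron livers without overlap for Tm7sf2, a sterol reductase, with 124, 132 and 121 CPM against 80.9, 68.1 and 110 (log2 fold change 0.54 ± 0.18, adjusted p = 0.392). For Nsdhl, a dehydrogenase that works with Hsd17b7 on the methyl groups, the high-iron levels were 119, 128 and 145 CPM and the sufficient-iron levels 96.5, 88.9 and 115 (log2 fold change 0.39 ± 0.19, adjusted p = 0.563). Squalene synthase (Fdft1), squalene epoxidase (Sqle) and the last enzyme of this branch (Dhcr7) had log2 fold changes of 0.27 ± 0.20, 0.23 ± 0.27 and 0.20 ± 0.21 in that comparison, with overlapping livers. Ebp, the sterol isomerase, had a different order: 198, 154 and 160 CPM in low iron, 138, 105 and 144 in sufficient iron and 154, 162 and 142 in high iron. The low-iron livers were above the sufficient-iron livers without overlap (log2 fold change 0.40 ± 0.15, adjusted p = 0.446), and the log2 fold change of high iron against low iron, -0.16 ± 0.15, was the single negative one among the 17 enzymes.

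The number of enzymes called in high iron against low iron changed with low iron 1. Centred on each gene's mean over the 9 libraries, the median of the 17 enzymes on the log2 scale was 0.34 in low iron 1 but -0.41 and -0.37 in low iron 5 and 9. The sufficient-iron libraries 2, 6 and 10 stood at -0.15, -0.23 and 0.09, and the high-iron libraries 4, 8 and 12 at 0.13, 0.23 and 0.41. Low iron 1 was the highest of its diet for 16 of the 17 enzymes, sufficient iron 10 for 15 and high iron 12 for 13. Low iron 5 was the lowest of the 9 libraries for 8 enzymes and low iron 9 for 5. Rn45s shares of the gene reads in low iron 1, 5 and 9 were 43.7%, 23.8% and 17.9%, and those in high iron 4, 8 and 12 were 18.5%, 14.4% and 40.5%.

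**Figure D3:**
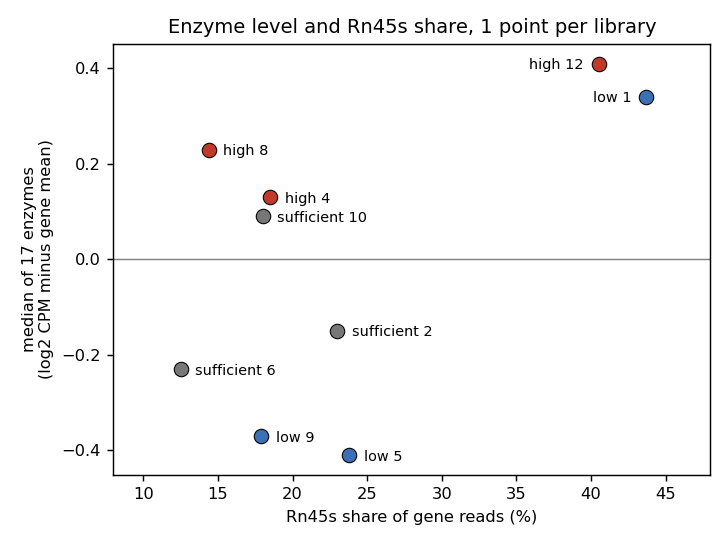
Median of the 17 enzymes (log2 CPM minus the gene mean over 9 libraries, vertical axis) against the Rn45s share of the gene reads (percent, horizontal axis), 1 point per library and coloured by diet. Low iron 1 and high iron 12 sit apart at shares of 43.7% and 40.5% with the highest medians, 0.34 and 0.41.

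Without low iron 1, 6 of the 31 genes were called higher in high iron against low iron, where 0.801% of all tested genes were called. They were Acat2, Pmvk, Idi1, Lss, Cyp51 and Hsd17b7, each an enzyme. Low iron 1 had high levels of these same enzymes, so larger log2 fold changes without it were built in. The log2 fold changes were 0.77 ± 0.13 for Acat2 (adjusted p = 0.0321), 0.77 ± 0.13 for Pmvk (0.0321), 0.94 ± 0.18 for Idi1 (0.0438), 0.90 ± 0.17 for Lss (0.0417), 0.76 ± 0.14 for Cyp51 (0.0397) and 0.83 ± 0.13 for Hsd17b7 (0.0222). These correspond to 1.69-fold to 1.92-fold higher levels in high iron. At an unadjusted p under 0.05, 15 of the 17 enzymes passed, where 11.1% of all tested genes did, and the median over the enzymes was 0.70 against 0.33 with all 9 libraries. The median was smaller without either of the other low-iron livers, 0.20 without low iron 5 (13 of 17 positive) and 0.19 without low iron 9 (14 of 17 positive), with 0 enzymes called in both fits. Hmgcs1 (log2 fold change 0.70, adjusted p = 0.0603), Nsdhl (0.60, adjusted p = 0.0904) and Sqle (0.76, adjusted p = 0.0907) did not pass, and Ebp stood at -0.03. The joint test of the 3 diets called Acat2 and Hsd17b7 in these 8 libraries (0.514% of all tested genes were called). In low iron against sufficient iron, 0 genes of the 31 were called without low iron 1; 2 of the 17 enzymes had positive log2 fold changes and their median was -0.31, where it was -0.06 with all 9 libraries.

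Leaving out both Rn45s-rich libraries, low iron 1 and high iron 12, ended these calls: 0 of the 31 genes were called in high iron against low iron, where 0.235% of all tested genes were. The log2 fold changes of these 6 enzymes were then 0.63 to 0.76. Hsd17b7 stood at 0.72 ± 0.12 (adjusted p = 0.0611), Idi1 at 0.73 ± 0.13 (0.07), Lss at 0.71 ± 0.13 (0.0765) and Pmvk at 0.76 ± 0.15 (0.0928). Cyp51 (0.63 ± 0.12, adjusted p = 0.0944) and Acat2 (0.73 ± 0.15, adjusted p = 0.0989) followed. At an unadjusted p under 0.05, 13 of the 17 enzymes passed, where 11.1% of all tested genes did, and the enzyme median was 0.56. This fit also lacks low iron 1, set apart by these same enzyme levels, and the 6 enzymes were picked by their calls without it. These values are therefore not counted as support for a diet difference. In high iron against sufficient iron without both libraries, 16 of 17 enzymes stayed positive with a median of 0.21, and 0 genes of the 31 were called. With all 9 libraries, DESeq2 called 3 of the 31 genes in high iron against low iron (Hsd17b7, Idi1 and Pmvk; 2.8% of all genes it adjusted were called) and the same 3 in the joint test (3.17%), while limma-voom called 0 in each of the 4 tests.

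**Figure D4:**
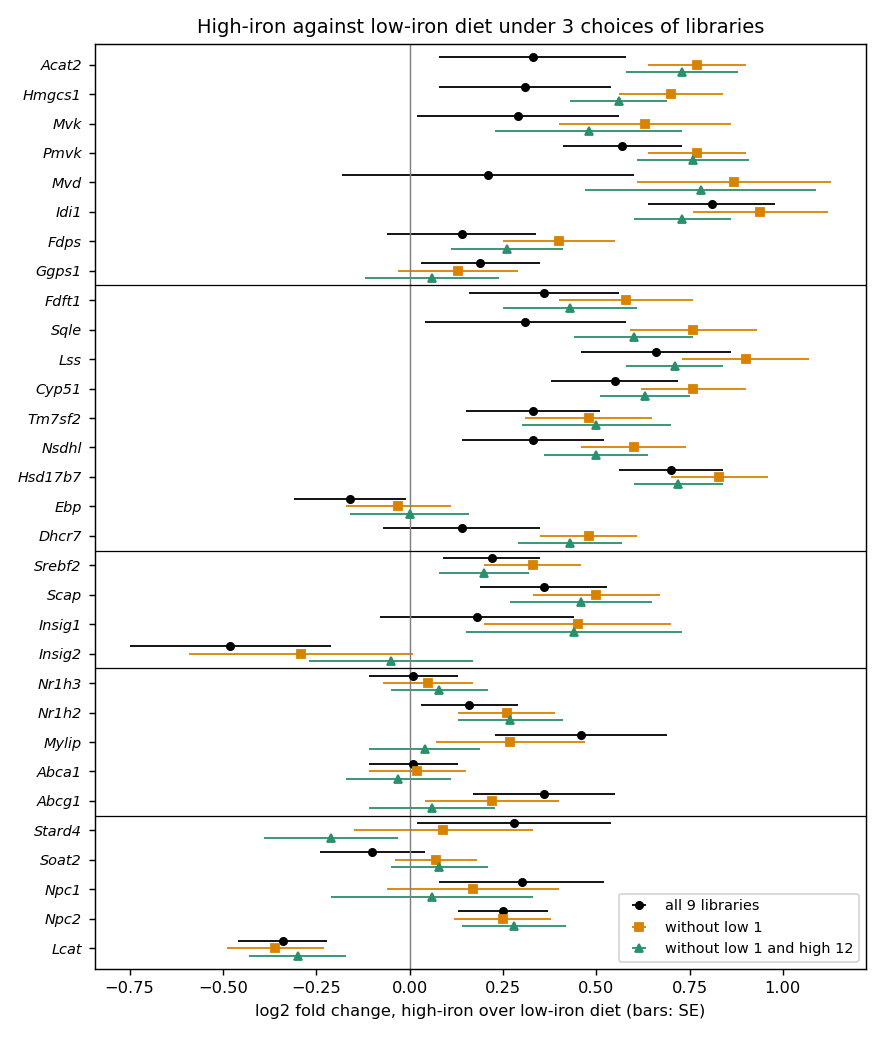
Log2 fold change of high iron over low iron (horizontal axis, with SE) for the 31 genes, grouped by role, with all 9 libraries (circles), without low iron 1 (squares) and without low iron 1 and high iron 12 (triangles). Most enzymes move to the right when low iron 1 is left out, Acat2 from 0.33 to 0.77, while Ebp stays near 0 or below and Lcat stays negative.

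For the 4 genes of SREBP2 control, the median log2 fold change was 0.04 in high iron against sufficient iron, -0.06 in low iron against sufficient iron and 0.20 in high iron against low iron, and 0 of 4 passed even at an unadjusted p under 0.05 in these comparisons. Srebf2, which encodes SREBP2, measured 43.1, 35.6 and 35.6 CPM in the low-iron livers, 42.4, 41.4 and 47.5 in the sufficient-iron livers and 38.6, 43.3 and 51.5 in the high-iron livers. The ranges of the 3 diets overlapped, with means of 38.1 ± 4.35, 43.7 ± 3.28 and 44.5 ± 6.57 CPM (SD, n = 3). The log2 fold change of high iron was 0.02 ± 0.13 against sufficient iron (adjusted p = 0.965) and 0.22 ± 0.13 against low iron (adjusted p = 0.647). SREBP2 is governed by cleavage of its precursor protein, which the RNA level does not report.

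Scap, the escort of the SREBP proteins, was the member of this group with the most separated diets. It measured 154, 115 and 123 CPM in low iron, 143, 97.7 and 150 in sufficient iron and 159, 172 and 173 in high iron. Each high-iron liver was above the other 6 livers, and the means were 131 ± 20.3, 130 ± 28.2 and 168 ± 7.81 CPM (SD, n = 3). The log2 fold change of high iron was 0.37 ± 0.17 against sufficient iron (adjusted p = 0.541) and 0.36 ± 0.17 against low iron (adjusted p = 0.544).

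Insig1 and Insig2 encode the proteins that retain the SCAP and SREBP2 complex, Insig1 being itself a target of SREBP2. Insig1 measured 639, 420 and 375 CPM in low iron, 617, 342 and 605 in sufficient iron and 438, 645 and 539 in high iron. The diets overlapped widely, and its means were 478 ± 141, 521 ± 155 and 541 ± 103 CPM (SD, n = 3), with a log2 fold change of 0.05 ± 0.26 in high iron against sufficient iron. Insig2 measured 474, 408 and 268 CPM in low iron, 399, 357 and 351 in sufficient iron and 379, 274 and 170 in high iron. High iron 12 was the lowest of the 9 libraries, and the means were 383 ± 105, 369 ± 25.8 and 274 ± 104 CPM (SD, n = 3). The log2 fold change of high iron was -0.43 ± 0.27 against sufficient iron (adjusted p = 0.64) and -0.48 ± 0.27 against low iron (adjusted p = 0.632), and without low iron 1 and high iron 12 the latter was -0.05 ± 0.22.

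The log2 fold changes of the 5 LXR genes ran from -0.12 to 0.24 in high iron against sufficient iron (median 0.08), from -0.39 to 0.08 in low iron against sufficient iron (median -0.13) and from 0.01 to 0.46 in high iron against low iron (median 0.16), and 0 of 5 passed at an unadjusted p under 0.05. Nr1h3 encodes LXR alpha, the main LXR of hepatocytes. It measured 79.5, 78.7 and 72.6 CPM in low iron, 80.1, 64.1 and 76.2 in sufficient iron and 76.2, 84.6 and 72.1 in high iron, with overlapping diets and means of 76.9 ± 3.8, 73.4 ± 8.32 and 77.6 ± 6.38 CPM (SD, n = 3). Its log2 fold change was 0.08 ± 0.12 in high iron against sufficient iron (adjusted p = 0.824). Nr1h2 encodes LXR beta. It measured 28.8, 24.3 and 23.1 CPM in low iron, 23.1, 21.8 and 27 in sufficient iron and 25.8, 31.3 and 27.7 in high iron, again with overlap, with means of 25.4 ± 3.01, 24 ± 2.7 and 28.3 ± 2.77 CPM (SD, n = 3) and a log2 fold change of 0.24 ± 0.13 in high iron against sufficient iron (adjusted p = 0.593).

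Abcg1, a cholesterol efflux transporter found also in macrophages, measured 4.45, 6.77 and 6.48 CPM in low iron, 7.11, 8.84 and 7.53 in sufficient iron and 6.45, 7.42 and 9.24 in high iron. The low-iron livers were below the sufficient-iron livers without overlap, with means of 5.9 ± 1.27 and 7.83 ± 0.902 CPM and 7.71 ± 1.41 in high iron (SD, n = 3). Its log2 fold change was -0.39 ± 0.19 in low iron against sufficient iron (adjusted p = 0.457). Mylip encodes the ubiquitin ligase IDOL, which marks lipoprotein receptors for breakdown. It measured 4.91, 8.16 and 8.6 CPM in low iron, 9.73, 8.05 and 9.35 in sufficient iron and 8.03, 9.22 and 13.2 in high iron, with means of 7.22 ± 2.01, 9.05 ± 0.879 and 10.1 ± 2.71 CPM (SD, n = 3). Its log2 fold change in high iron against low iron was 0.46 ± 0.23 (adjusted p = 0.579) and, without low iron 1 and high iron 12, 0.04. Abcg1 and Mylip were lowest in low iron 1 and highest in high iron 12. Low iron 1 also had the lowest summed levels of Kupffer, endothelial, stellate and cholangiocyte markers (91, 110, 145 and 22.9 CPM). The endothelial sum was highest in high iron 12 (226 CPM). The Kupffer sum was highest in sufficient iron 2 (360 CPM), and the stellate and cholangiocyte sums in sufficient iron 6 (291 and 66 CPM). The part of these cells in Abcg1 and Mylip was not tested. Abca1, which lipidates nascent high-density lipoprotein, measured 156 to 215 CPM over the 9 libraries, with a log2 fold change of -0.12 ± 0.12 in high iron against sufficient iron.

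Other LXR targets were taken from a second list of 8 genes. In high iron against sufficient iron 2 of the 8 were called, both higher: Abcg5 and Abcg8, the subunits of the exporter that moves sterols into bile. Abcg5 measured 52.3, 52 and 50.7 CPM in low iron, 39, 36.7 and 47.9 in sufficient iron and 68.5, 102 and 86.6 in high iron (log2 fold change 1.06 ± 0.15, adjusted p = 0.0341), and Abcg8 measured 60.8, 62.9 and 71.7 CPM in low iron, 51.1, 47.6 and 70.3 in sufficient iron and 108, 144 and 132 in high iron (1.19 ± 0.17, adjusted p = 0.0331). Against low iron, Abcg8 was called (log2 fold change 0.97 ± 0.17, adjusted p = 0.0339) and Abcg5 was not (0.73 ± 0.15, adjusted p = 0.072). These calls depended on single libraries while the size did not. With 1 library left out, Abcg8 kept a log2 fold change of 1.07 to 1.37 in high iron against sufficient iron, and its call ended without high iron 4, 8 or 12, sufficient iron 2 or 6, or low iron 9 (adjusted p 0.0924, 0.194, 0.12, 0.0951, 0.0754 and 0.0507). For Abcg5 the range was 0.91 to 1.19, and the call remained in 1 of these 9 fits, the one without low iron 1 (adjusted p = 0.0249; 0.0517 to 0.19 in the other fits). Against low iron, the Abcg8 call ended without any one of the high-iron or low-iron livers (adjusted p 0.0543 to 0.151, the last without both low iron 1 and high iron 12). Cyp7a1, the rate-limiting enzyme of bile acid synthesis, measured 67.2, 64.9 and 70 CPM in low iron and 51.2, 192 and 50.6 in sufficient iron. In high iron it measured 48.2, 26.6 and 39.2 CPM, below both other diets without overlap. Against sufficient iron, 1 liver, sufficient iron 6, carried much of its log2 fold change of -1.37 ± 0.46 (adjusted p = 0.418, and -0.42 without that liver). Against low iron the log2 fold change was -0.83 ± 0.46 (adjusted p = 0.625). Pltp, the phospholipid transfer protein, measured 77.5, 44.1 and 67.7 CPM in low iron and 55.5, 93.1 and 77.8 in sufficient iron. In high iron it measured 107, 122 and 114 CPM, above both other diets without overlap. The log2 fold change of high iron was 0.59 ± 0.22 against sufficient iron (adjusted p = 0.458) and 0.86 ± 0.22 against low iron (adjusted p = 0.148). In high iron against sufficient iron, the lipogenic LXR targets Srebf1, Scd1 and Fasn had log2 fold changes of -0.16 ± 0.14, 0.22 ± 0.17 and 0.27 ± 0.28. The phospholipid remodelling enzyme Lpcat3 stood at 0.20 ± 0.10 in that comparison. Whether the difference of Abcg5 or Abcg8 exceeds that of Abca1 or Abcg1 was not tested.

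**Figure D5:**
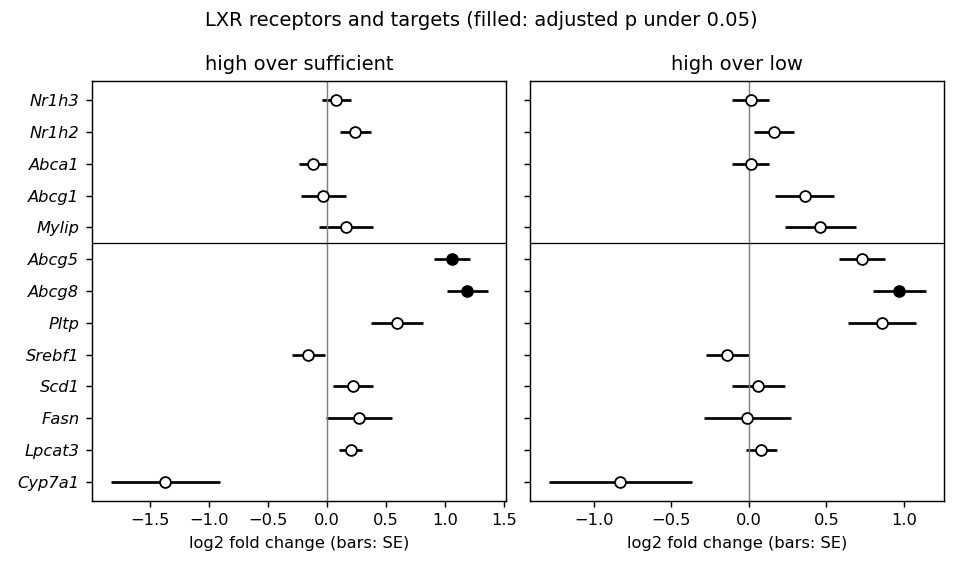
Log2 fold change with SE for the LXR genes (Nr1h3, Nr1h2, Abca1, Abcg1, Mylip, above the line) and 8 other LXR targets (below it), high iron over sufficient iron on the left and high iron over low iron on the right; filled points have an adjusted p under 0.05. Abcg5 and Abcg8 are filled on the left and Abcg8 on the right, and the 5 genes above the line are open.

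The 5 genes of sterol transfer, storage and esterification had medians of 0.06, 0.03 and 0.25 in high against sufficient, low against sufficient and high against low iron. Lcat, which encodes the plasma enzyme that esterifies the cholesterol of high-density lipoprotein, ran opposite to the synthesis enzymes. It measured 194, 198 and 210 CPM in low iron, 175, 170 and 176 in sufficient iron and 150, 184 and 141 in high iron. The low-iron livers lay above the other 6, and the means were 201 ± 8.19, 174 ± 2.85 and 158 ± 22.5 CPM (SD, n = 3). The log2 fold change was -0.34 ± 0.12 in high iron against low iron (adjusted p = 0.32) and 0.21 ± 0.12 in low iron against sufficient iron (adjusted p = 0.486).

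Npc1 and Npc2 encode the membrane and soluble proteins that release cholesterol from lysosomes. Npc1 measured 82.2, 100 and 124 CPM in low iron, 81.1, 87.3 and 133 in sufficient iron and 97.6, 137 and 143 in high iron. The 3 diets overlapped, with means of 102 ± 21.1, 100 ± 28.3 and 126 ± 24.6 CPM (SD, n = 3) and a log2 fold change of 0.32 ± 0.22 in high iron against sufficient iron (adjusted p = 0.658). Npc2 measured 58.7, 52.1 and 67.2 CPM in low iron, 64.8, 69.7 and 73.1 in sufficient iron and 72.6, 72.8 and 65.5 in high iron. The low-iron livers 1 and 5 were the lowest of the 9, and the means were 59.3 ± 7.59, 69.2 ± 4.19 and 70.3 ± 4.14 CPM (SD, n = 3), with a log2 fold change of -0.22 ± 0.12 in low iron against sufficient iron (adjusted p = 0.471). Stard4, a carrier of cholesterol between membranes, ranged from 49.4 CPM in low iron 1 to 118 in high iron 12. Soat2, which esterifies cholesterol for storage and secretion, measured 25.9, 25.9 and 24.8 CPM in sufficient iron and 26.5, 29.5 and 26.8 in high iron, a separation without overlap of small size (log2 fold change 0.11 ± 0.14).

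A further list of 7 sterol genes outside the 31 (Sc4mol, Sc5d, Lbr, Tmem97, Mmab, Rdh11 and Pcyt2) had 0 genes called in any comparison, and 0 at an unadjusted p under 0.05 by edgeR. Its median log2 fold change was 0.20 in high iron against sufficient iron, 0.04 in low iron against sufficient iron and 0.09 in high iron against low iron. Sc4mol, the iron-dependent sterol oxidase now called Msmo1, had a log2 fold change of 0.27 ± 0.23 in high iron against sufficient iron.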

How the data were processed

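RNA-seq of liver was analysed in 9 libraries, 3 per diet, from separate mice. RNA was isolated with RNeasy Mini columns and libraries were made with the TruSeq RNA kit for a HiSeq instrument, per the labels' protocols. The authors deposited 1 table per library, with the raw count of reads for each gene symbol. FastQC and builds mm10 and mm9 appear, without a stated role, per the submitters' processing notes. The use of strand, the aligner and the counter were not given in the sources used here. Without strand, reads of overlapping or antisense genes may be mixed. The 5 category entries of each table were left out of library sizes and tests; reads outside any gene were 13.4% to 25.9% of the uniquely aligned reads.

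The statistics were run in R 4.3.3, with edgeR 4.0.16 for the main fit: filterByExpr, TMM scaling, and a robust quasi-likelihood fit with diet as the only term. P-values were adjusted over all 13020 tested genes in each comparison, with 0.05 as the threshold; common biological variation was 0.177. A prior count of 2 was added for log2 CPM. Levels per kilobase used the principal transcript of each gene in GENCODE M21 (GRCm38). Alternatives were other filters (none, or 1 CPM in 3 libraries), DESeq2 size factors, upper-quartile scaling, DESeq2 1.42.0, limma-voom (limma 3.58.1), the 6 compared libraries alone, Rn45s and Lars2 removed, each library left out, and low iron 1 and high iron 12 left out together.

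The 31 genes, the role groups and the other lists were chosen with earlier results of these data known, as was the pair of libraries left out. A gene was taken out of the further sterol list, which left 7, and is not reported here. Values per liver are given for the 3 genes with the lowest joint p in each role group, for Srebf2, Scap, Insig1, Insig2, Nr1h3 and Nr1h2, and for any of the 31 genes called with all 9 libraries (there were 0); other genes are given by range or by example, some chosen after their values were seen.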

Additional observations from a re-analysis of the deposited data

How the results depend on the processing

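The choice of test and of libraries moved the counts of calls. Over all tested genes, high iron against sufficient iron called 28, and 45 with no filter, 218 by DESeq2, 17 without low iron 1 and high iron 12, and 0 to 56 with 1 library left out (0 without high iron 4 or 8, 56 without low iron 1). Low iron against sufficient iron called 0 (1458 at an unadjusted p under 0.05), 105 by DESeq2, 1 without both libraries and 0 to 1 with 1 left out. High iron against low iron called 66, 365 by DESeq2, 31 without both and 0 to 112 with 1 left out (0 without high iron 8, 112 without sufficient iron 6). The joint test called 28, 52 with no filter, 413 by DESeq2, 15 without both and 0 to 68 with 1 left out (0 without high iron 4 or 8, 68 without low iron 1).

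Of the 31 genes, high iron against low iron called 0, 1 with no filter (Hsd17b7, adjusted p = 0.0437), 3 by DESeq2 (adjusted p = 0.000291 for Hsd17b7, 0.00103 for Idi1 and 0.047 for Pmvk) and 0 to 6 with 1 library left out, 6 being without low iron 1. The joint test called 0, 3 by DESeq2 and 0 to 2 with 1 left out. With 1 library left out, the median over the 31 genes ran from 0.13 to 0.32 in high against sufficient iron, from -0.22 to 0.05 in low against sufficient iron and from 0.16 to 0.45 in high against low iron.

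Small uncalled log2 fold changes turned sign. In high against sufficient iron, leaving out 1 library gave -0.10 to 0.12 for Srebf2, -0.18 to 0.19 for Insig1, -0.01 to 0.15 for Nr1h3, -0.07 to 0.30 for Mylip, -0.18 to 0.08 for Abcg1 and -0.02 to 0.07 for Npc2; without both libraries Srebf2 stood at -0.10 and Mylip at -0.07. In low against sufficient iron it gave -0.13 to 0.51 for Acat2, -0.26 to 0.03 for Pmvk, -0.33 to 0.05 for Lss, -0.17 to 0.11 for Scap, -0.40 to 0.02 for Insig1, -0.14 to 0.25 for Insig2, -0.03 to 0.13 for Nr1h3, -0.03 to 0.16 for Nr1h2 and -0.14 to 0.27 for Npc1; without both, Acat2 stood at -0.12, Scap at -0.12, Insig2 at -0.12 and Nr1h2 at -0.02. Scap, at 0.01, became 0 with no filter and in the 6 libraries alone, and -0.01 with the CPM filter and upper-quartile scaling. In high against low iron Nr1h3 ran from -0.05 to 0.07. The cause was not tested. No paired analysis was run, because the diets share no replicate number and the labels state no pairing or block.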
